A study of Homo sapiens with 24 samples.

Results

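The transcripts of 10 nuclear genes were followed in U2932 cells, grown from a human lymphoma of large B cells, after reagents directed at MYC. The proteins of these genes make, methylate, stabilise, degrade or help control the RNA of mitochondria, or, for POLG, copy the mitochondrial DNA. The genes were TFAM, POLRMT, TFB2M and TFB1M, the RNA-binding partners LRPPRC and SLIRP, the RNA-degrading partners PNPT1 and SUPV3L1, the DNA polymerase gene POLG and the coactivator gene PPRC1. They were chosen by symbol, and all 10 were found among the 61541 genes of the 48 h table and the 19836 genes of the 72 h table. All 10 also passed the filter on low values, which left 14136 genes tested at 48 h and 11985 at 72 h.

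PNA2 is a gamma PNA, in which the bases of a nucleic acid hang on a peptide-like chain, and its dose is labelled 8 mM, a unit that is doubtful. The second reagent was an siRNA at 500 nM brought in by electroporation, and no electroporated control was among the groups, so siRNA and electroporation cannot be told apart. At 48 h there were 4 libraries labelled PNA2, 4 siRNA libraries and 6 controls in PBS, and at 72 h there were 5 libraries labelled PNA2 and 5 controls. The genotype entries read cmyc knockdown for PNA2 and siRNA and WT for controls, with bone marrow as the tissue of every library. For the 4 siRNA libraries the line is entered as U2933 to U2936, although their treatment text names U2932. It is not stated whether replicates were separate cultures, so p-values measure the spread between these libraries, which may be technical.

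Mitochondria carry their own small circular genome, which is transcribed from promoters on both strands into long precursors that are then cut into messages, transfer RNAs and ribosomal RNAs. POLRMT is the RNA polymerase of this genome, TFAM bends and packages the DNA and helps place the polymerase, and TFB2M opens the promoter. TFB1M methylates the ribosomal RNA of the small mitochondrial subunit. LRPPRC with SLIRP binds and stabilises the messages, while the nuclease PNPT1 and the helicase SUPV3L1 form the complex that degrades mitochondrial RNA. POLG is the catalytic subunit of the DNA polymerase that copies the genome, and PPRC1 is a coactivator that works with the nuclear factor NRF1 on genes for mitochondrial proteins.

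The genes lie on 7 nuclear chromosomes, and in GRCh38 with GENCODE 29 each is annotated as protein-coding. TFAM spans chr10:58385022-58399221 on the plus strand, POLRMT chr19:617224-633604 on the minus strand, POLG chr15:89305198-89334861 on the minus strand and PPRC1 chr10:102132994-102150331 on the plus strand. SUPV3L1 (chr10:69180232-69209099) and SLIRP (chr14:77708071-77761104) lie on the plus strand, and TFB2M (chr1:246540560-246566324), TFB1M (chr6:155257509-155314493), LRPPRC (chr2:43886508-43996005) and PNPT1 (chr2:55634265-55693910) on the minus strand. The promoters of POLRMT and POLG are shown because both genes were called lower (adjusted p under 0.05) in libraries labelled PNA2 at 48 h. TFAM and PPRC1 are shown as both were called lower in siRNA libraries at 48 h and in libraries labelled PNA2 at 72 h. SUPV3L1 and LRPPRC were also called lower in the siRNA libraries and PNPT1 at 72 h, but their promoters are not printed. The sequences are from RefSeq (GRCh38.p14), run 5′ to 3′ on the strand of the gene and cover 250 bases before to 50 bases after the start. They come from chr10:58385160-58385459 for TFAM, chr19:633488-633787 for POLRMT, chr15:89334775-89335074 for POLG and chr10:102132790-102133089 for PPRC1. Capitals mark the motifs that were found.
TFAM: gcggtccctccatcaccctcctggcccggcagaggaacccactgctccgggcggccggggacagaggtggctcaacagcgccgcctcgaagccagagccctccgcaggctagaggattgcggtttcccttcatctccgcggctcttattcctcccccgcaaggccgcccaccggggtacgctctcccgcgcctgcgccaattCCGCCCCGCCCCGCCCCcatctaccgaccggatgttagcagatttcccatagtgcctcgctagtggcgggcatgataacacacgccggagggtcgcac
POLRMT: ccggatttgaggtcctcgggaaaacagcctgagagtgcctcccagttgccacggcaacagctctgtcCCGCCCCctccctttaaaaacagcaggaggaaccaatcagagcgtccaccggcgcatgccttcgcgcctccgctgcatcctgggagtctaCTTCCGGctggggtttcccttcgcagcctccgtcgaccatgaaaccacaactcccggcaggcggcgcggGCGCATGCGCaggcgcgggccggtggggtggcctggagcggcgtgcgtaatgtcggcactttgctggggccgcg
POLG: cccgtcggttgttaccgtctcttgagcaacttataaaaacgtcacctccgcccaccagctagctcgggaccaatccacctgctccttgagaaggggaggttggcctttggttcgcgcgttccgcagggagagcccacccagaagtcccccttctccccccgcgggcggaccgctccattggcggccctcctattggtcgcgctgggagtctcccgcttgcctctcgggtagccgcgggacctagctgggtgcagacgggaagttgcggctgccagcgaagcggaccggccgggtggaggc
PPRC1: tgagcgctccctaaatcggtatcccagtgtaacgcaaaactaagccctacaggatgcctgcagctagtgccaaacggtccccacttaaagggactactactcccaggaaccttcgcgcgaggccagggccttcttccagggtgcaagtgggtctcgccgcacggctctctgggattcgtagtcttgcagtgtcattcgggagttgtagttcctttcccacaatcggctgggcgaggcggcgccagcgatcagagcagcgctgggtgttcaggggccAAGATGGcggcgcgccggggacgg

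The motifs searched, on both strands, were the E-box CACGTG that MYC with MAX is known to bind, the NRF1 core (GCGCA followed directly by its own reverse complement), the ETS core CCGGAAG, the GC box GGGGCGG and the YY1 core AAGATGG. None of these contains another, copies of the GC box can overlap one another, and a motif on the opposite strand is printed as its reverse complement. All 10 genes had a promoter in the RefSeq table, SLIRP with 2 entries. The E-box was in the window of 0 of the 10 genes and in 7.26% of all 35116 promoters of that length. The NRF1 core was present in POLRMT, beginning 24 bases before the start, and in TFB1M, beginning 132 bases before it, and in 1.24% of all promoters. The ETS core was found in 3 of the 10 genes (POLRMT, TFB1M and SLIRP), the GC box in 3 (TFAM, POLRMT and PNPT1) and the YY1 core in 3 (LRPPRC, SLIRP and PPRC1), against 10.3%, 30.8% and 5.84% of all promoters. TFAM held 3 overlapping GC boxes, beginning 48, 43 and 38 bases before the start, and the windows of POLG, SUPV3L1 and TFB2M held none of the 5 motifs. A match describes the letters of the window and was not tested as a binding site.

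Library totals at 48 h, in adjusted counts, were 14881651 to 16033819 in libraries labelled PNA2, 12625943 to 16167951 in siRNA libraries and 11121494 to 14460806 in controls. At 72 h, in reads recovered from the deposited values, they were 11253704 to 13687016 in libraries labelled PNA2 and 8215064 to 13282795 in controls. Tied and negative values at 48 h are those of counts adjusted by sets of libraries, which the labels do not name. The ties give set A, with 2 PNA2, 4 siRNA and 3 control libraries, and set B, with 2 PNA2 and 3 control libraries. For pairs of replicates at 48 h the mean squared difference relative to counting noise was 2.30 to 4.80 among siRNA libraries, 3.58 to 76.4 among libraries labelled PNA2 and 4.03 to 37.5 among controls. The libraries PNA2 2 at 48 h and PNA2 3 at 72 h stood apart from their groups: pairs with the first gave 55.0 to 76.4 against 3.58 to 17.8 for the others, and pairs with the second gave 30.7 to 60.4 against 17.9 to 29.2. All 6 B cell markers were present, with a summed level, as CPM, of 1886 to 2975 in libraries labelled PNA2, 3125 to 3261 in siRNA libraries and 2533 to 2772 in controls at 48 h, and of 2120 to 2367 in libraries labelled PNA2 and 1854 to 1986 in controls at 72 h. PNA2 2 was the lowest of these at 48 h, and the part of this difference in the results was not tested. CD3D and CD2 of T cells were at 0 in all libraries, and the summed markers reached at most 1.90 CPM for T and NK cells, 4.03 CPM for myeloid cells and 0.566 CPM for erythroid cells, with 7.98 to 27.6 CPM for stroma and epithelium, highest in library PNA2 4 at 48 h.

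MYC, the targeted gene, was not called lower in the libraries labelled PNA2 at 48 h or 72 h. Its scaled 48 h level, the adjusted count divided by a library scale, was 7198, 7260, 7904 and 8997 in libraries labelled PNA2, 3578, 3961, 4159 and 3576 in siRNA libraries, and 5348 at the lowest, 6880 at the median and 7721 at the highest of 6 controls. The siRNA libraries lay below every control, and their log2 change was -0.82 (SE 0.11, adjusted p = 0.000396, limma with Benjamini-Hochberg adjustment over all genes tested). Genes are called where this adjusted p is under 0.05. The libraries labelled PNA2 overlapped the controls (log2 change 0.24, SE 0.099, adjusted p = 0.114), with a change of 0.01 within set A (adjusted p = 0.941) and 0.47 within set B (adjusted p = 0.00964). MYC was also called higher in them without PNA2 2 (0.29, adjusted p = 0.0432), without rescaling (0.44, adjusted p = 0.0213) and with quantile normalization (0.26, adjusted p = 0.0327). At 72 h MYC stood at 2007, 2032, 460, 1966 and 1809 counts per size factor in libraries labelled PNA2, against 1121, 2321, 2035, 2846 and 826 in controls, a log2 change of -0.18 (SE 0.45, adjusted p = 0.794), or 0.24 without PNA2 3 (adjusted p = 0.627). Directions given for PNA2 below are therefore those of libraries whose label the RNA level of the target does not bear out. The level of MYC protein is not part of these data.

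Per kilobase of annotated exons, the levels of the 10 transcripts in 48 h controls ran from 554 ± 88 for LRPPRC to 38.6 ± 5.6 for TFB1M (scaled level per kilobase, SD, n = 6). LRPPRC and POLG (552 ± 43) did not differ beyond their spread, and both lay above PPRC1 (346 ± 40) with no overlap. From PPRC1 down through POLRMT (324 ± 27), TFB2M (309 ± 39), SLIRP (286 ± 39), TFAM (226 ± 42), PNPT1 (201 ± 33) and SUPV3L1 (141 ± 20), every neighbour overlapped the next. TFB1M lay below all of them, and it was the lowest of the 10 in all 5 groups, with 38.4 ± 7.8 in libraries labelled PNA2 and 31.5 ± 1.4 in siRNA libraries at 48 h (SD, n = 4 each). In siRNA libraries POLG (502 ± 34) lay above LRPPRC (448 ± 5.5) with no overlap, and PPRC1, at 226 ± 11, came after POLRMT, TFB2M and SLIRP (SD, n = 4). The 72 h table was normalized separately, and there the controls again had LRPPRC highest (426 ± 27, SD, n = 5), followed by POLRMT (315 ± 33). The divisor holds all annotated exon bases of a gene, such as 9760 for LRPPRC and 2631 for SLIRP. It can exceed the length of the transcript expressed, so the order of genes depends on the annotation.

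Between the libraries labelled PNA2 and controls at 48 h, the genes for the 2 polymerases were lower and the other 8 transcripts did not pass the test. POLRMT, the RNA polymerase gene, had scaled levels of 1247, 972, 1256 and 1291 in libraries labelled PNA2, against 1471 at the lowest, 1691 at the median and 1853 at the highest of 6 controls. Every library labelled PNA2 was below every control, and the log2 change was -0.48 (SE 0.087, adjusted p = 0.00216, limma over all genes), or 0.715 of the control level. POLG, the gene for the DNA polymerase, had 2472, 2259, 2743 and 2624 in libraries labelled PNA2, against 2865, 3384 and 3577 at the lowest, median and highest control. Its groups did not overlap either, and the log2 change was -0.39 (SE 0.077, adjusted p = 0.00408), or 0.764 of the control level. In bulk RNA, fewer cells that express a gene and less of its RNA per cell cannot be told apart.

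These 2 genes are 2 of 10 called lower, set against 8.04% of all genes tested, and 0 of 10 were called higher, set against 8.11%. They were also the 2 whose groups did not overlap, which held for 4.87% of all genes in the lower direction and 5.20% in the higher. The median log2 change of the 10 transcripts was -0.08, beside -0.0011 over all genes. Within set A, the change was -0.67 for POLRMT (adjusted p = 0.00753) and -0.54 for POLG (adjusted p = 0.00732), and within set B it was -0.29 (adjusted p = 0.0375) and -0.23 (adjusted p = 0.102). Without library PNA2 2, which had the lowest level of both genes, the changes were -0.37 (adjusted p = 0.000687) and -0.33 (adjusted p = 0.00336). Values not rescaled for library size gave -0.29 for POLRMT (adjusted p = 0.102) and -0.19 for POLG (adjusted p = 0.273), while the median of all genes moved to 0.19. With a replicate block POLRMT passed and POLG did not. For POLG, 458 bases or 7.66% of the annotated exon length overlap FANCI on the opposite strand (mean 3043 in libraries labelled PNA2 and 3174 in controls, in adjusted counts), and whether strand was used in counting is not given in the sources used here. On the opposite strand 7.86% of TFB1M overlaps TIAM2 and 4.49% of SLIRP overlaps SNW1, and 275 bases or 10.5% of SLIRP overlap C14orf178 on the same strand (mean at most 1.49 adjusted counts in each 48 h group).

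TFAM, TFB2M and TFB1M did not pass the test at 48 h in libraries labelled PNA2. TFAM had 1303, 1045, 1199 and 1193 in libraries labelled PNA2, against 981, 1256 and 1575 at the lowest, median and highest control, and a log2 change of -0.08 with a 95% interval of -0.30 to 0.14. TFB2M had a change of -0.09 (-0.28 to 0.10) and TFB1M one of -0.02 (-0.32 to 0.29). All 3 groups overlapped their controls.

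Neither pair of RNA-stability and RNA-degradation genes passed the test in that comparison. The log2 change was -0.03 for LRPPRC (-0.22 to 0.17), 0.03 for its partner SLIRP (-0.26 to 0.32), -0.21 for PNPT1 (-0.44 to 0.03) and 0.01 for its partner SUPV3L1 (-0.16 to 0.19). PPRC1 had 1904, 1800, 1875 and 1761 in libraries labelled PNA2, against 1688, 2192 and 2308 at the lowest, median and highest control. The log2 change of PPRC1 was -0.19 (SE 0.071, adjusted p = 0.0769), and 1 control, control 3, lay below all libraries labelled PNA2. Without that control, PPRC1 passed the test (log2 change -0.24, adjusted p = 0.0153). Within set A, PNPT1 (-0.46, adjusted p = 0.0313) and PPRC1 (-0.30, adjusted p = 0.025) also passed, and within set B they had 0.05 and -0.08.

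**Figure D1:**
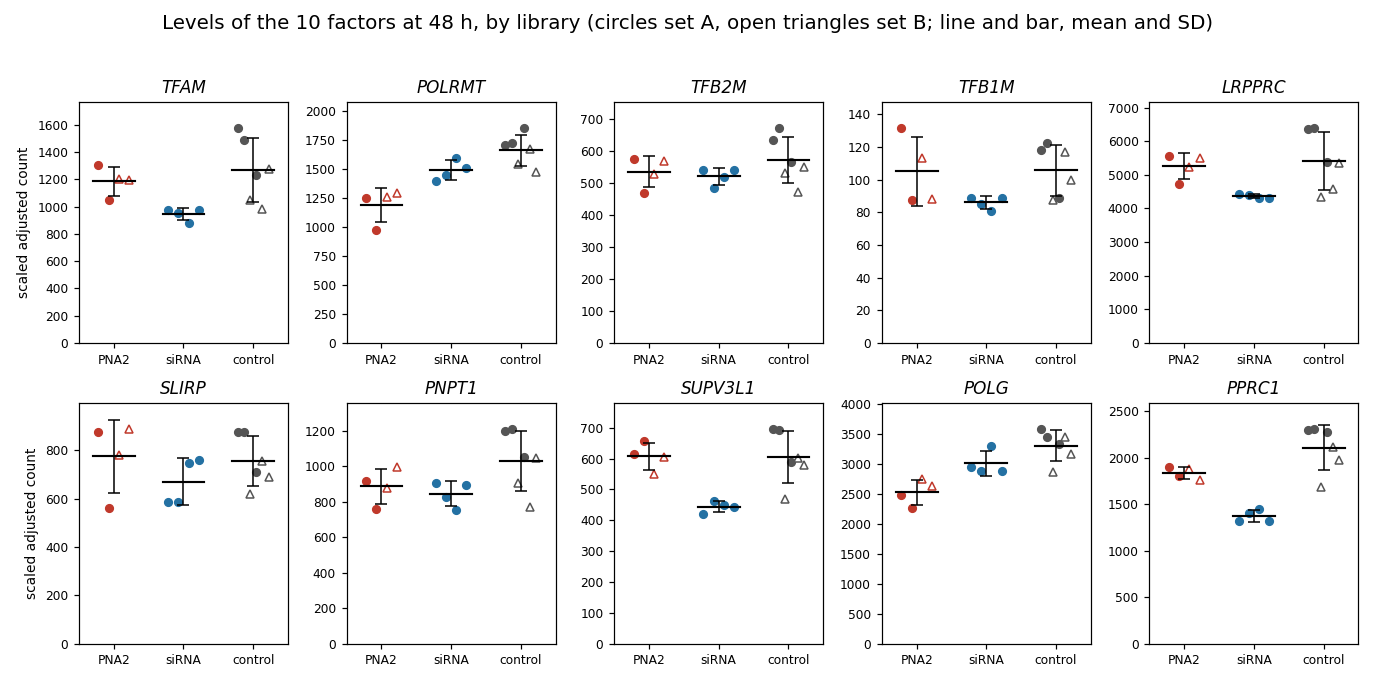
Scaled adjusted counts at 48 h (vertical axes, from 0) of the 10 transcripts, 1 point per library, for 4 libraries labelled PNA2, 4 siRNA libraries and 6 controls, with filled circles for set A, open triangles for set B, and lines and bars for the mean and SD. POLRMT and POLG in libraries labelled PNA2 lie below every control, as do TFAM, SUPV3L1 and PPRC1 in siRNA libraries.

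The siRNA libraries had lower PPRC1, SUPV3L1, TFAM and LRPPRC than the controls at 48 h, and none of the 10 transcripts had a positive log2 change. PPRC1, the coactivator gene, had 1319, 1408, 1453 and 1317 in siRNA libraries, against 1688, 2192 and 2308 at the lowest, median and highest of 6 controls. No siRNA library reached the lowest control, and the log2 change was -0.69 (SE 0.080, adjusted p = 0.000115), or 0.619 of the control level. SUPV3L1, the helicase gene, had 420, 463, 449 and 442 in siRNA libraries, against 469, 595 and 695 at the lowest, median and highest control, with a log2 change of -0.54 (SE 0.092, adjusted p = 0.00162). TFAM had 973, 953, 882 and 973 in siRNA libraries, against 981, 1256 and 1575 at the lowest, median and highest control, with a log2 change of -0.51 (SE 0.11, adjusted p = 0.00749). For both genes the highest siRNA library lay just below the lowest control. LRPPRC, the message-stabilising gene, had 4422, 4407, 4324 and 4321 in siRNA libraries, against 4347, 5364 and 6391 at the lowest, median and highest control, and a log2 change of -0.38 (SE 0.10, adjusted p = 0.0184). Its groups overlapped, since control 3 lay within the siRNA range.

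Of the 10 transcripts, 4 were called lower, set against 8.52% of all genes tested, and 0 were called higher, set against 8.72%. The groups did not overlap for 3 of them (TFAM, SUPV3L1 and PPRC1), which held for 6.87% of all genes in the lower direction and 8.61% in the higher. The median log2 change was -0.34 over the 10, beside -0.01 over all genes. Within set A, where all siRNA libraries lie, the changes were -0.71 for PPRC1, -0.54 for SUPV3L1, -0.56 for TFAM and -0.43 for LRPPRC, with adjusted p of 0.000735, 0.00296, 0.00705 and 0.00801. LRPPRC no longer passed without control 1 (-0.30, adjusted p = 0.0877), control 2 (-0.30, adjusted p = 0.095) or siRNA 4 (-0.38, adjusted p = 0.0514). It also did not pass with no term for the sets (-0.29, adjusted p = 0.0786) or with a replicate block. The other 3 calls held under every omission of a library and with that block. Without rescaling, the changes were -0.46 for PPRC1, which still passed (adjusted p = 0.0183), -0.31 for SUPV3L1 (adjusted p = 0.153), -0.28 for TFAM (adjusted p = 0.209) and -0.15 for LRPPRC (adjusted p = 0.504), while the median of all genes moved to 0.22.

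The other 6 transcripts did not pass the test in siRNA libraries. PNPT1 had 909, 826, 756 and 894 in siRNA libraries, against 774, 1050 and 1210 at the lowest, median and highest control, with a log2 change of -0.34 (-0.61 to -0.08, adjusted p = 0.0682). It passed in 4 of 19 alternatives: in the fit of only these 2 groups (-0.42, adjusted p = 0.00297), within set A (-0.42, adjusted p = 0.0188), without unnumbered control 6 (-0.35, adjusted p = 0.0393) and with the sets aligned on controls (-0.40, adjusted p = 0.0484). The change was -0.33 (-0.68 to 0.01) for TFB1M, -0.20 (-0.52 to 0.13) for SLIRP, -0.19 (-0.40 to 0.02) for TFB2M, -0.17 (-0.37 to 0.04) for POLRMT and -0.14 (-0.32 to 0.04) for POLG. In the fit of only siRNA libraries and controls, POLRMT (-0.22, adjusted p = 0.0178) and TFB2M (-0.23, adjusted p = 0.0375) passed as well.

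Because PNA2 and siRNA were set against the same controls, their difference was tested directly. Libraries labelled PNA2 had higher SUPV3L1 (log2 difference 0.56, SE 0.099, adjusted p = 0.00103), PPRC1 (0.50, SE 0.086, adjusted p = 0.000747), TFAM (0.43, SE 0.12, adjusted p = 0.0192) and LRPPRC (0.36, SE 0.11, adjusted p = 0.028) than siRNA libraries, and lower POLRMT (-0.32, SE 0.10, adjusted p = 0.0362). SUPV3L1 had scaled levels of 614, 658, 550 and 607 in libraries labelled PNA2, against 420, 463, 449 and 442 in siRNA libraries. Thus 4 of 10 were called higher and 1 of 10 lower, set against 12.0% and 11.5% of all genes tested. The levels of the first 4 genes did not overlap, with every library labelled PNA2 above every siRNA library, and those of POLRMT and POLG did not overlap in the other direction. Such separation was seen for 14.2% of all genes in the higher direction and 13.3% in the lower. POLG had a difference of -0.25 (-0.45 to -0.05, adjusted p = 0.0601).

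The differences in SUPV3L1 and PPRC1 passed the test under every alternative run, at 0.49 and 0.40 within set A (adjusted p = 0.00463 and 0.00326). Within set A those in TFAM (0.28, adjusted p = 0.109) and LRPPRC (0.20, adjusted p = 0.139) did not pass. Neither passed with no term for the sets, in the fit of only the 2 groups or with a replicate block. POLRMT did not pass with that block either. Of 17 alternatives, the call was lost in 7 for TFAM, 12 for LRPPRC and 7 for POLRMT. Without rescaling TFAM (0.39, adjusted p = 0.112), LRPPRC (0.32, adjusted p = 0.186) and POLRMT (-0.36, adjusted p = 0.109) did not pass, and neither did POLRMT with no filter on low values (-0.32, adjusted p = 0.0662). The LRPPRC call was lost on leaving out any of 7 of the 8 libraries of these groups (0.29 to 0.36, adjusted p from 0.0541 to 0.0638), and it held without PNA2 2 (0.49, adjusted p = 0.00087). TFAM was not called without PNA2 1 (0.38, adjusted p = 0.0605) or siRNA 3 (0.40, adjusted p = 0.0534). POLRMT was not called without PNA2 2 (-0.16, adjusted p = 0.152), siRNA 2 (-0.33, adjusted p = 0.0606), siRNA 3 (-0.28, adjusted p = 0.0957) or siRNA 4 (-0.31, adjusted p = 0.0783), and SLIRP was called higher without PNA2 2 (0.48, adjusted p = 0.00789). POLG was called lower in 6 of 17 alternatives: within set A (-0.37, adjusted p = 0.0103), in the fit of only the 2 groups (-0.37, adjusted p = 0.0129), with quantile normalization (-0.23, adjusted p = 0.0276), with no term for the sets (-0.25, adjusted p = 0.0403), and without PNA2 3 (-0.31, adjusted p = 0.0259) or PNA2 4 (-0.29, adjusted p = 0.0387).

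**Figure D2:**
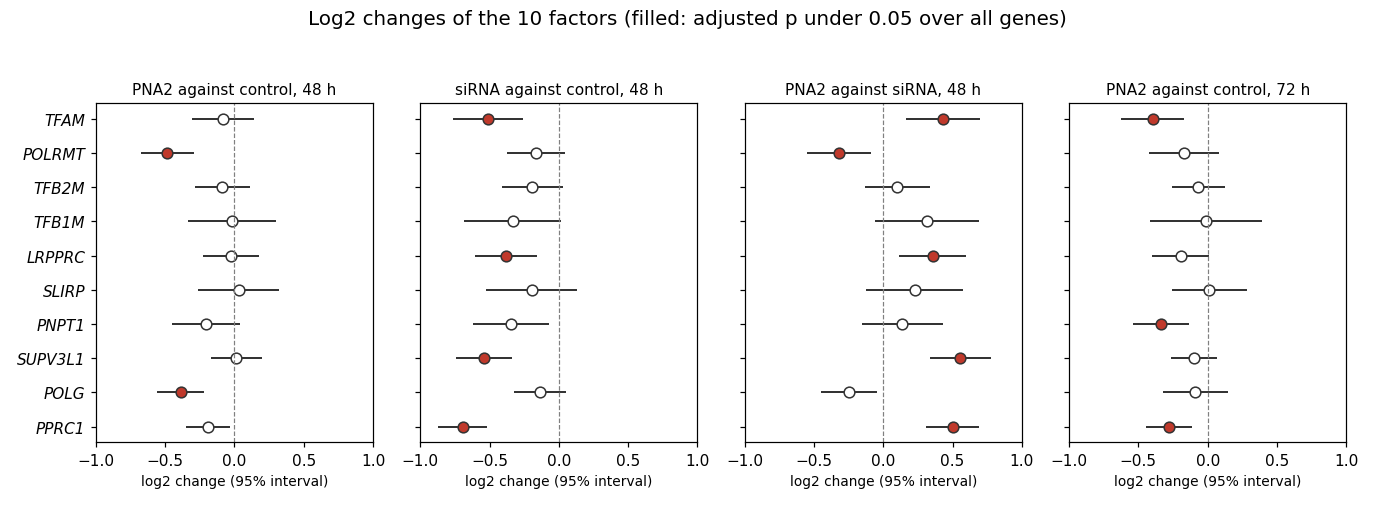
Log2 changes of the 10 transcripts (horizontal axes) with 95% intervals from limma, for PNA2 against control at 48 h, siRNA against control at 48 h, PNA2 against siRNA at 48 h and PNA2 against control at 72 h; filled points have an adjusted p under 0.05 over all genes. POLRMT and POLG are filled at 48 h for PNA2, and TFAM and PPRC1 are filled both for siRNA at 48 h and for PNA2 at 72 h.

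At 72 h the libraries labelled PNA2 had lower TFAM, PNPT1 and PPRC1 than the controls, and POLRMT and POLG did not pass the test. TFAM had 516, 699, 546, 572 and 651 counts per size factor in libraries labelled PNA2, against 840, 678, 745, 838 and 817 in controls. One control, control 2, lay within the range of the libraries labelled PNA2, and the log2 change was -0.40 (SE 0.10, adjusted p = 0.0157), or 0.760 of the control level. PNPT1, the nuclease gene, had 586, 691, 600, 630 and 716 in libraries labelled PNA2, against 793, 730, 893, 899 and 752 in controls, and a log2 change of -0.33 (SE 0.089, adjusted p = 0.0194). PPRC1 had 1588, 1497, 1416, 1310 and 1483 in libraries labelled PNA2, against 1812, 1921, 1739, 1606 and 1763 in controls, and a log2 change of -0.28 (SE 0.072, adjusted p = 0.0173). For PNPT1 and PPRC1 every library labelled PNA2 was below every control.

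Thus 3 of 10 transcripts were called lower at 72 h, set against 11.7% of all genes tested, and 0 were called higher, set against 12.1%. Groups without overlap numbered 2 of 10, both lower, which held for 9.18% of all genes in that direction and 10.0% in the other. The median log2 change was -0.13, beside -0.0054 over all genes. Without library PNA2 3 the changes were -0.37 for TFAM, -0.31 for PNPT1 and -0.27 for PPRC1, with adjusted p of 0.0294, 0.0341 and 0.0258. PNPT1 no longer passed without control 3 (-0.30, adjusted p = 0.051) or control 4 (-0.30, adjusted p = 0.0512).

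The other 7 transcripts did not pass at 72 h. LRPPRC had 3243, 3775, 3090, 4255 and 3893 in libraries labelled PNA2, against 4141, 3860, 4176, 4570 and 4032 in controls, overlapping groups with a log2 change of -0.19 (-0.39 to 0.0024, adjusted p = 0.137). Without PNA2 4 it passed (-0.25, adjusted p = 0.0451). POLRMT had 1446, 1539, 1762, 1215 and 1236 in libraries labelled PNA2, against 1498, 1876, 1580, 1437 and 1670 in controls, with a change of -0.17 (-0.41 to 0.07). Changes were -0.10 (-0.26 to 0.06) for SUPV3L1, -0.09 (-0.32 to 0.14) for POLG, -0.07 (-0.25 to 0.12) for TFB2M, -0.01 (-0.41 to 0.38) for TFB1M and 0.01 (-0.25 to 0.28) for SLIRP. Whether the changes at 48 h and 72 h differ was not tested, since the tables were normalized separately.

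**Figure D3:**
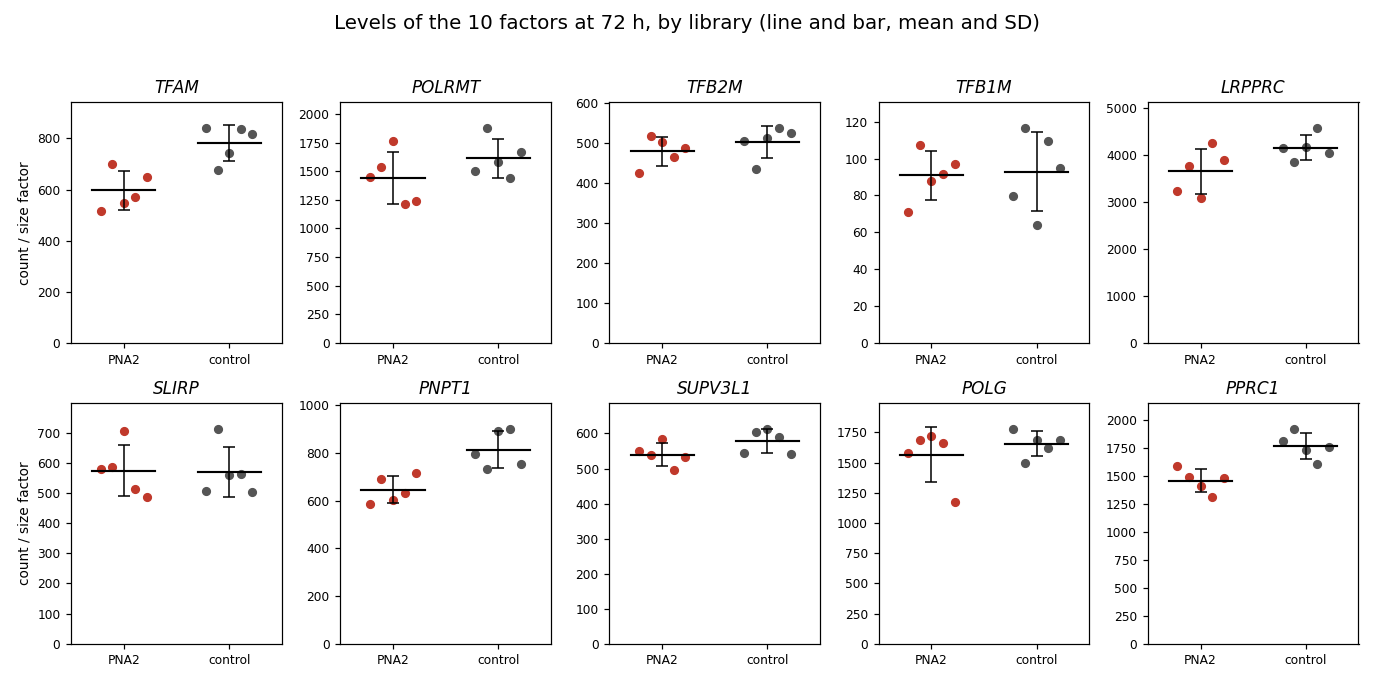
Counts divided by size factors at 72 h (vertical axes, from 0) of the 10 transcripts, 1 point per library, for 5 libraries labelled PNA2 and 5 controls, with lines and bars for the mean and SD. PNPT1 and PPRC1 separate the groups, and for TFAM 1 control lies within the range of the libraries labelled PNA2.

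The 13 protein-coding messages of the mitochondrial genome, which some of the products of these genes make, stabilise or degrade, had a higher summed share in libraries labelled PNA2. They took 4.85% ± 0.65 of the library total in libraries labelled PNA2 at 48 h (SD, n = 4), 2.04% ± 0.12 in siRNA libraries (n = 4) and 2.22% ± 0.52 in controls (n = 6), and at 72 h 7.30% ± 1.01 in libraries labelled PNA2 against 4.35% ± 0.32 in controls (n = 5 each). Against controls, 11 of 13 rose in libraries labelled PNA2 at 48 h and 0 fell, set against 8.11% and 8.04% of all genes tested, with MT-ND1 at a log2 change of 1.66, MT-ND2 at 1.53 and MT-ND4 at 1.46. At 72 h 13 of 13 rose, set against 12.1% of all genes, led by MT-ND2 (1.11), MT-CO2 (1.02) and MT-ND1 (0.99). Libraries labelled PNA2 still overlapped controls for MT-CYB, MT-CO3, MT-ND6 and MT-ATP8 at 48 h, and for MT-ND4L, MT-ND6 and MT-ATP8 at 72 h. The other messages lay above every control, which held for 5.20% of all genes at 48 h and 10.0% at 72 h. In siRNA libraries 0 of 13 passed in either direction, with log2 changes from -0.33 to 0.04 for the 12 other than MT-ATP8, and 11 of 13 were higher in libraries labelled PNA2 than in siRNA libraries (12.0% of all genes), again led by MT-ND1 (1.90), MT-ND2 (1.77) and MT-ND4L (1.699). MT-ND6 did not pass at 48 h for PNA2 against control (0.63, adjusted p = 0.114) or against siRNA (0.75, adjusted p = 0.102), and MT-ATP8 did not pass either. For MT-ATP8 no log2 change is given at 48 h, since the deposited value of control 3 was -78.8 and was set to 0. Its scaled levels were 3704 to 8249 in libraries labelled PNA2, 1725 to 2516 in siRNA libraries and 2094 to 4680 in the other 5 controls. The median log2 change of the 13 was 1.17 for PNA2 and -0.17 for siRNA against control at 48 h, 1.32 for PNA2 against siRNA and 0.82 for PNA2 against control at 72 h. These messages are cut from shared precursors, so they are not independent of one another.

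Set against the level of the polymerase transcript, the summed value of the 13 messages was 599 ± 82 per POLRMT value in libraries labelled PNA2 at 48 h (SD, n = 4), 186 ± 14 in siRNA libraries (n = 4) and 189 ± 50 in controls (n = 6). Libraries labelled PNA2 ran from 526 to 710 and controls from 117 to 249, with no overlap. Per TFAM value at 72 h it was 1510 ± 293 in libraries labelled PNA2 and 627 ± 98 in controls (SD, n = 5 each), and the lowest library labelled PNA2, at 1257, lay above the highest control, at 758. The separation was not particular to these denominators, and the share of the 13 messages in the library total alone also gave it. That share was 4.30% to 5.78% in libraries labelled PNA2 and 1.38% to 2.92% in controls at 48 h. At 72 h it was 6.15% to 8.30% in libraries labelled PNA2 and 3.96% to 4.63% in controls. The ratios therefore add no separate result. Per TFAM value at 48 h the libraries labelled PNA2 ran from 551 to 679 and controls from 172 to 425, and per POLRMT value at 72 h the libraries labelled PNA2 ran from 459 to 804 and controls from 263 to 339. Per value of LRPPRC, which was not called in either comparison, they ran from 126 to 159 in libraries labelled PNA2 and from 41.5 to 90.8 in controls at 48 h, and from 169 to 317 in libraries labelled PNA2 and from 98.4 to 133 in controls at 72 h.

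**Figure D4:**
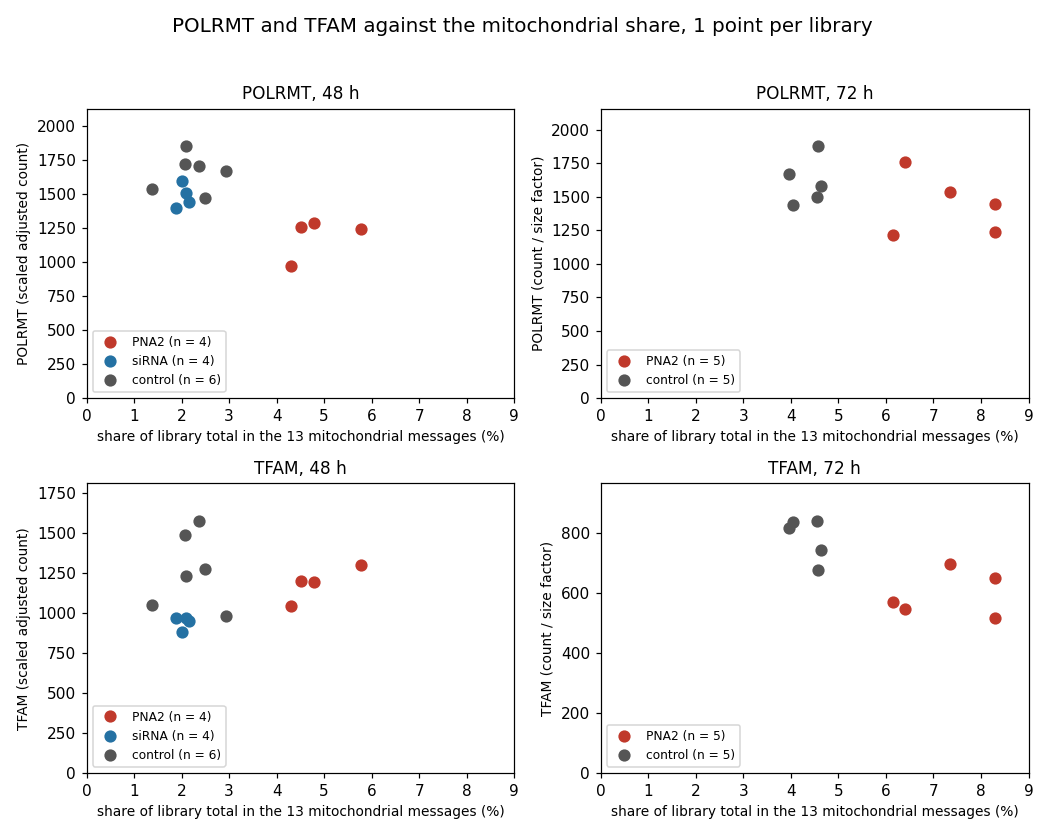
POLRMT (top) and TFAM (bottom) levels on the vertical axes, in scaled adjusted counts at 48 h and counts per size factor at 72 h, against the share of the library total in the 13 mitochondrial messages (horizontal axes, percent), 1 point per library. At 48 h the 4 libraries labelled PNA2 lie at 4.30% to 5.78%, right of every siRNA library and control, and lowest for POLRMT; at 72 h they lie right of the controls.

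Ratios of partner transcripts within each library, per kilobase, are given without a test. Their size depends on the annotated exon lengths, which are the same in every group. SLIRP per LRPPRC was 0.543 ± 0.071 in libraries labelled PNA2, 0.570 ± 0.089 in siRNA libraries and 0.520 ± 0.048 in controls at 48 h (SD), and 0.599 ± 0.163 in libraries labelled PNA2 and 0.511 ± 0.098 in controls at 72 h, with overlapping ranges at both times. The ranges of TFB1M per TFB2M also overlapped at both times. SUPV3L1 per PNPT1 was 0.830 ± 0.143 in libraries labelled PNA2, 0.633 ± 0.072 in siRNA libraries and 0.711 ± 0.112 in controls, and here the libraries labelled PNA2 (0.729 to 1.04) lay above the siRNA libraries (0.555 to 0.712) and within reach of the controls (0.618 to 0.933). At 72 h it was 1.01 ± 0.12 in libraries labelled PNA2 and 0.857 ± 0.080 in controls, with ranges that overlapped. TFAM per POLRMT was 0.914 ± 0.066 in libraries labelled PNA2, 0.582 ± 0.056 in siRNA libraries and 0.699 ± 0.125 in controls at 48 h. The libraries labelled PNA2 (0.845 to 0.983) lay above the siRNA libraries (0.504 to 0.635) and only just above the controls (0.536 to 0.842). POLRMT, the divisor, was itself called lower in libraries labelled PNA2 at 48 h. At 72 h TFAM per POLRMT was 0.387 ± 0.081 in libraries labelled PNA2 and 0.451 ± 0.080 in controls, the opposite order of means, with ranges that overlapped. TFAM per TFB2M at 48 h was 0.731 ± 0.026 in libraries labelled PNA2, 0.601 ± 0.037 in siRNA libraries and 0.729 ± 0.059 in controls. At 72 h it was 0.410 ± 0.035 in libraries labelled PNA2 and 0.514 ± 0.025 in controls, with ranges of 0.359 to 0.445 in libraries labelled PNA2 and 0.480 to 0.550 in controls.

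Other genes for mitochondrial RNA processing and binding showed calls in both directions. Of 45 tested at 48 h, 1 rose and 7 fell in libraries labelled PNA2, set against 8.11% and 8.04% of all genes, with TRMT61B (log2 change -0.51) and TRMU (-0.51), which modify transfer RNA, lower and ANGEL2 (0.36) higher. In siRNA libraries 1 rose and 10 fell, set against 8.72% and 8.52%, led by LACTB2 (0.69), an endoribonuclease gene, PUS1 (-0.63), a pseudouridine synthase gene, and PTCD2 (-0.52). Between libraries labelled PNA2 and siRNA libraries 5 were higher and 3 lower, set against 12.0% and 11.5%, led by LACTB2 (-0.66), TRIT1 (0.48) and TRMT61B (-0.46). At 72 h 5 of 44 rose and 7 fell in libraries labelled PNA2, counts near the 12.1% and 11.7% of all genes, led by FASTKD1 (-0.65), MTERF2 (-0.62) and TRNT1 (-0.47). The medians of the list were -0.13, -0.19, 0.02 and -0.05 in the order of these comparisons.

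Genes for the upkeep of mitochondrial DNA, the process that POLG serves, had calls in both directions except in siRNA libraries against controls. Of 20 tested at 48 h, 1 rose and 3 fell in libraries labelled PNA2, set against 8.11% and 8.04% of all genes, with ATAD3A (-0.54), the nuclease-helicase gene DNA2 (-0.38) and POLG2 (-0.32), which encodes the accessory subunit of the same polymerase. In siRNA libraries 0 rose and 5 fell, set against 8.72% and 8.52%, led by the mitochondrial topoisomerase gene TOP1MT (-0.85), the helicase gene TWNK (-0.66) and the ligase gene LIG3 (-0.43). Libraries labelled PNA2 had 4 higher and 2 lower than siRNA libraries, set against 12.0% and 11.5%, led by RRM2B (-0.95), TOP1MT (0.78) and TWNK (0.61). At 72 h 1 of 20 rose and 4 fell in libraries labelled PNA2, set against 12.1% and 11.7%, led by POLG2 (-0.96), DNA2 (-0.68) and SLC25A36 (-0.57), while POLG had -0.09. In the same order the medians of this list were -0.06, -0.18, 0.05 and -0.03. Of 11 nuclear regulators of mitochondrial genes tested, 1 passed in each comparison: HCFC1 (-0.29) in libraries labelled PNA2 and MYC (-0.82) in siRNA libraries at 48 h, MYC (1.06) between the 2, and PPARGC1B (-0.49), a coactivator gene related to PPRC1, at 72 h. MYC is the target of the siRNA, so its calls were set by the design and say nothing about the other regulators. The other 10 were not called in those comparisons, where 8.52% of all genes were called lower and 12.0% higher. For HCFC1 and PPARGC1B, 1 of 11 is near the 8.04% and 11.7% of all genes called lower. The medians of the regulators were -0.05, -0.06, -0.07 and -0.18.

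Across the 14 libraries at 48 h, with the mean of the controls of each set removed, all 45 pairs among the 10 transcripts had a positive Pearson correlation of log2 levels, from 0.099 between POLRMT and SUPV3L1 to 0.98 between TFAM and LRPPRC, with a median of 0.67. POLRMT with POLG had 0.93 and SUPV3L1 with PPRC1 0.92. Among 9627 other genes with a mean level of at least 100, those most like TFAM were SSB (0.99), LRPPRC (0.98) and HSPD1 (0.98), and those most like PPRC1 were IFRD2 (0.98), ING5 (0.97) and TWNK (0.97). The points share groups, library scale and the adjustment of the authors, so these values describe the 14 libraries only. The share of positive pairs among all genes was not computed, so the 45 of 45 cannot be set apart from genes in general.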

How the data were processed

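Per the labels, stranded total RNA and mRNA kits were both used, without saying for which libraries. The submitters' processing notes list HISAT2 2.2.1, HTSeq 0.11.0, SAMtools 1.7, Trimmomatic and DESeq2, and the build GRCh38; strand use in counting is not given in the sources used here. The extraction text names 48 h for all libraries, so the 72 h of the titles is in some doubt.

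The 72 h table holds signal that the authors made, as deposited, by dividing read counts by size factors of 0.73 to 1.19; times that factor, 100% of values were whole numbers to within 0.01. The 48 h table, as deposited by the authors and to judge from its values, holds counts adjusted per gene and set of libraries, not divided by depth, with values below 0 in 5099 genes. Ties among low values put 9 libraries in set A (PNA2 1 and 2, all 4 siRNA, and controls 1, 2 and 4) and 5 in set B. A header shared by 2 control columns made them unnumbered controls 6 and 7, after their column.

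At 48 h, values below 0 were set to 0 and values divided by a TMM scale (edgeR 4.0.16). Log2 of the value plus 1 was fitted with limma 3.58.1 (R 4.3.3, mean-variance trend, two-sided), with group and set at 48 h and group at 72 h, so that fold changes of low genes are understated. Genes with a value of at least 10 in 4 libraries at 48 h or 5 at 72 h were tested. Called means an adjusted p (Benjamini-Hochberg over all genes tested) under 0.05. Intervals are 95%. The fit was tried on simulated counts that had no set effect, no values below 0 and no outlying library. That trial therefore does not cover these features of the 48 h data. Replicates differed by more than counting noise, and no library was identical to another. Same-numbered libraries deviated together weakly at most (closing section), and no block was used. Levels per kilobase divide by all annotated exon bases. CPM of markers is the share of the table total.

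Alternatives were no term for the sets, no rescaling, quantile normalization, a pseudocount of 10, no filter, each set alone, only the compared groups, sets aligned on controls, a replicate block, TMM at 72 h, edgeR and DESeq2 1.42.0 on recovered reads, and each library left out. The 10 genes and the lists were chosen with earlier results of these data known. Named beside them are MYC, the 3 called genes with the largest change per list and comparison, and the 3 genes most like TFAM and PPRC1. Exon lengths are from GENCODE 29. No column of per-sample values was left unmapped.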

Additional observations from a re-analysis of the deposited data

Results flagged for a closer look

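Of 55 combinations of a gene (the 10 transcripts and MYC) and a group of libraries, 4 held a library far from the rest of its group, judged by the gap to its neighbour relative to the range of the group; chance gives about 1 in 20. POLRMT at 48 h was lowest in library PNA2 2, at 972, among 4 libraries labelled PNA2. POLG at 72 h was lowest in library PNA2 5, at 1173, among 5 libraries labelled PNA2. SLIRP at 72 h was highest in control 2, at 711, among 5 controls. MYC at 72 h was lowest in library PNA2 3, at 460, among 5 libraries labelled PNA2.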

How the results depend on the processing

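Of 249 alternative values for the 14 called changes of the 10 genes, 209 stayed past the threshold, 40 did not pass and 0 changed sign. Of 471 for the 26 changes not called, 17 passed. Without rescaling at 48 h the median of all genes moved to 0.19 for PNA2 and 0.22 for siRNA; 0, 1 and 2 of the 10 genes were then called for PNA2 against control, siRNA against control and PNA2 against siRNA, and 1785 of all genes in the last, against 2, 4, 5 and 3325 in the analysis reported. The share of calls that were higher became 92.3%, 96.6% and 39.2%, against 50.2%, 50.6% and 51.2%. For PNA2 against control 4 of the 10 were called within set A and 1 within set B. Fits of only the compared groups called 1010 genes for PNA2 (2284 reported) and 4563 genes with 7 of the 10 for siRNA (2437 reported), and no term for the sets gave 1184 for siRNA with 39.5% higher. Leaving out 1 library gave 1176 to 2522 genes for siRNA against control and 2 to 5 of the 10 for PNA2 against siRNA. The cause was not tested.

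Same-numbered libraries had residual correlations of -0.603 to 0.0739 at 48 h and -0.0438 to 0.108 at 72 h. Differently numbered pairs had -0.661 to 0.631 and -0.0993 to 0.0616. The medians were 0.0015 for the same number and 0.00046 for different numbers at 48 h, and 0.060 and -0.013 at 72 h. Whether same-numbered libraries share more than a number at 72 h was not tested. With a replicate block 848, 956 and 1819 genes were called in the 48 h comparisons in the order above, with 1, 3 and 2 of the 10, and 2769 genes at 72 h with 3 of the 10.

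Signs turned only for values that did not pass. Without rescaling, PNA2 against control had TFAM 0.12, TFB2M 0.11, TFB1M 0.18, LRPPRC 0.17 and PPRC1 0.0055, and siRNA against control POLRMT 0.070, TFB2M 0.045, SLIRP 0.040 and POLG 0.098. Quantile normalization gave LRPPRC 0.024 for PNA2. Set A gave SLIRP -0.21 and SUPV3L1 -0.044, set B TFAM 0.13, TFB2M 0.083, LRPPRC 0.18 and PNPT1 0.052, and the replicate block TFB1M 0.023. For PNA2 against siRNA, TFB2M and PNPT1 had -0.0270 and -0.0448 within set A and -0.0274 and -0.0452 in the fit of the compared groups, and PNPT1 -0.036 with the block. At 72 h SLIRP had -0.0035 with TMM and -0.0037 with edgeR.

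Leaving out 1 library for PNA2 against control at 48 h gave ranges of -0.14 to 0.028 for TFAM, -0.15 to 0.0080 for TFB2M, -0.13 to 0.096 for TFB1M, -0.088 to 0.067 for LRPPRC, -0.063 to 0.21 for SLIRP and -0.042 to 0.048 for SUPV3L1. At 72 h they were -0.43 to 0.24 for MYC, -0.13 to 0.079 for TFB1M, -0.064 to 0.095 for SLIRP and -0.13 to 0.011 for POLG. Precision is limited by 4 to 6 libraries a group and by the low level of TFB1M.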
